A study of Mus musculus with 12 samples.

Results

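The 10 genes described here, Stab1, Stab2, Lyve1, Clec4g, Fcgr2b, Pecam1, Cdh5, Kdr, Oit3 and Dnase1l3, are markers of the endothelial cells that line the sinusoids of the liver. They were taken by name, as the entries of the gene table whose symbol equalled one of these names. The list was drawn up with earlier results of these data known. Each name was found once among the 41128 genes of the table. All 10 were among the 11782 genes with a mean normalized count of at least 10 that were tested, and the lowest value of any of them in any library was 25.0, for Lyve1 in CV male 1.

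RNA from the whole livers of 12 C57BL/6 mice was sequenced, with 1 library per mouse, to compare livers with and without exposure to microbes. The 6 germ-free (GF) mice stayed in sterile isolators throughout. The 6 conventionalized (CV) mice were their littermates, which left the isolators at weaning, at about 21 days of age, and lived for 3 weeks on soiled bedding from other cages of the facility. All mice were killed at 6 weeks of age, carried no other treatment, and fell into 4 groups of 3 (GF male, CV male, GF female and CV female). The CV mice were thus also germ-free until weaning.

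Liver sinusoids are capillaries whose endothelium has open pores and no continuous basement membrane, so that blood plasma reaches the hepatocytes directly. Their endothelial cells are known for very active uptake of waste molecules from blood through scavenger receptors, among them the stabilins, and for uptake of small immune complexes through an Fc receptor. The blood that enters them comes largely from the gut, and the cells lie beside Kupffer cells, the resident macrophages, and stellate cells.

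Several libraries stood apart. Libraries held 5993619 to 10975691 reads in GF mice and 8890529 to 15290835 in CV mice, and mitochondrial ribosomal RNA took 9.36 to 16.4% of the reads in GF libraries against 1.39 to 6.32% in CV libraries. The library labelled CV male 3 held 0 reads of Y-linked genes and 2382 normalized counts of Xist, the RNA of the inactive X chromosome, where the other libraries labelled male held at most 21.3, so its sex chromosome genes went against its label. CV male 1 was the lowest of all 12 libraries for all 10 endothelial genes, at a median log2 difference of -1.5 from the mean of the other CV male libraries. Hepatocyte markers, which define liver tissue, summed to 163464 normalized counts or more in every library. Behind the values of the 10 genes stood 30 to 1007 reads per gene and library. Stab1, Stab2, Clec4g, Cdh5 and Fcgr2b overlap annotated genes on the opposite strand, and since the strand setting of the counting is not given in the sources used here, reads of the overlapping stretches cannot be told apart. Results are given with and without CV male 1 and the library labelled CV male 3 where they changed.

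The outcome divided the 10 genes. The stabilins, Stab1 and Stab2, were lower in CV than in GF livers in both sexes, by 3.31-fold and 3.65-fold over both sexes, and Cdh5, the adhesion protein of endothelial junctions, was 1.51-fold lower. The other 7 did not pass the test. With limma on log2(normalized count + 1), 3 of 10 genes were called lower and 0 higher over both sexes at an adjusted p under 0.05, where 28.7% of all genes tested were called lower and 32.3% higher, so the share called lower was close to that among all genes. The median log2 change of the 10 genes was -0.27, beside 0.07 for all genes tested. That median was 0.04 without CV male 1, with Clec4g called higher and 2 genes lower, where 30.9% and 28.3% of all genes were. It was -0.41 without CV male 3, with 3 called lower, beside 28.3% of all genes. In whole tissue, fewer cells of a type and less RNA per cell cannot be told apart.

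**Figure D1:**
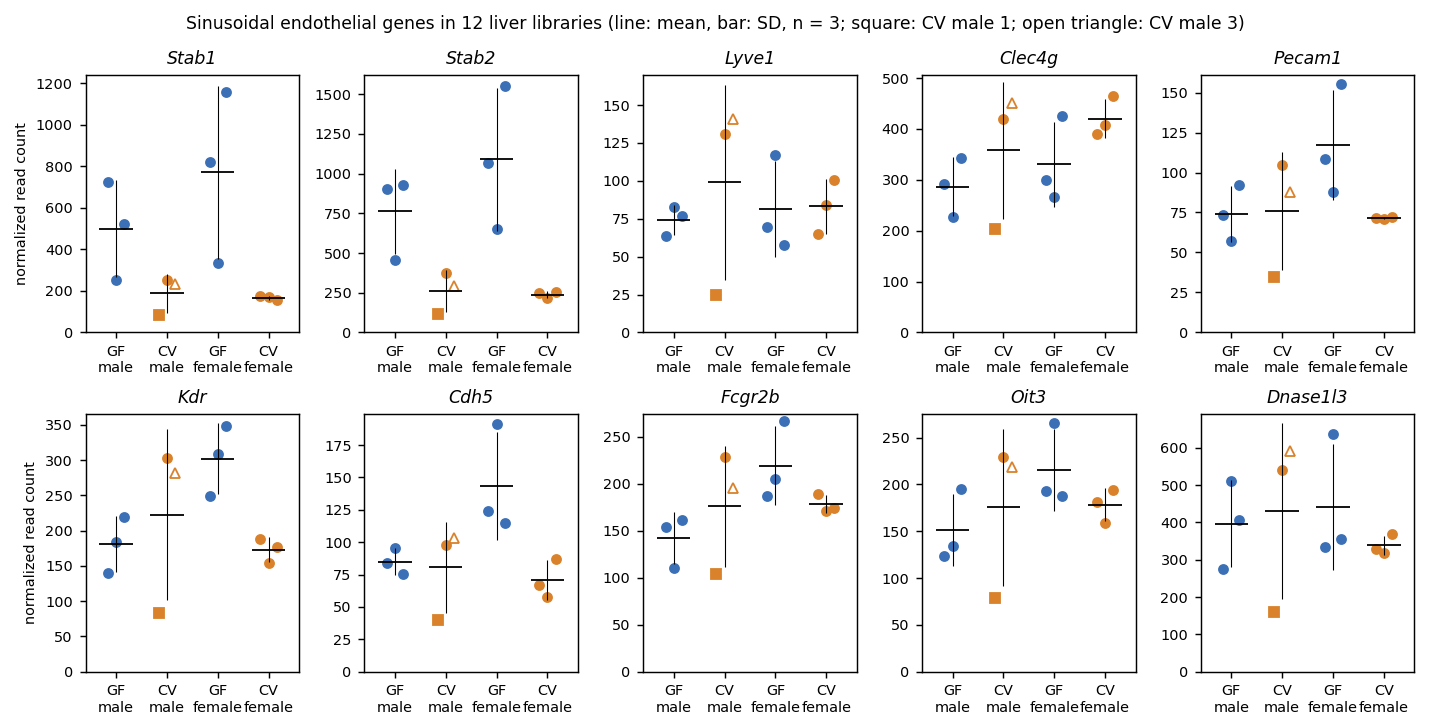
Normalized read counts of the 10 endothelial genes (vertical axes, linear and starting at 0) in the 12 libraries, by condition and labelled sex, with 1 point per mouse, a line at the mean of 3 and a bar of 1 SD. CV male 1 (square) is the lowest point in all 10 panels, and the GF points of Stab1 and Stab2 lie above the CV points of the same sex.

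Stab1 encodes stabilin-1, a large scavenger receptor that macrophages also make. The gene (ENSMUSG00000042286) lies on the minus strand at chr14:31139013-31168641 in GRCm38. Its normalized counts in GF males 1, 2 and 3 were 723, 254 and 523, and in CV males 1, 2 and 3 they were 81.7, 252 and 234. In GF females 1, 2 and 3 they were 819.7, 332 and 1159.7, and in CV females 1, 2 and 3 they were 176, 169 and 157. The groups did not overlap in either sex, although GF male 2 and CV male 2 nearly met, and the GF libraries spread over a far wider range than the CV females. The mean was 635 ± 336 (SD, n = 6) in GF and 178 ± 60.8 (SD, n = 6) in CV livers. The log2 change from GF to CV was -1.73 (SE 0.33, limma adjusted p = 0.00032) over both sexes.

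Within males the log2 change of Stab1 was -1.43 (SE 0.47, limma adjusted p = 0.0320), and within females it was -2.02 (SE 0.47, limma adjusted p = 0.00183). The call in males rested on single libraries. The limma adjusted p there was 0.151, 0.0975 and 0.166 when GF male 1, GF male 3 or CV male 1 was dropped, with log2 changes of -1.10, -1.34 and -0.91. Dropping the library labelled CV male 3 gave 0.0275. Over both sexes the change of Stab1 was -1.47 without CV male 1 and -1.84 without CV male 3, and both passed the test.

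Stab2 encodes stabilin-2, the main receptor by which sinusoidal cells take hyaluronan out of the blood. The gene (ENSMUSG00000035459) lies on the minus strand at chr10:86841198-87008025 in GRCm38. GF males 1, 2 and 3 held 902, 455 and 931 normalized counts, and CV males 1, 2 and 3 held 117, 374 and 293. GF females 1, 2 and 3 held 1067, 649 and 1553, and CV females 1, 2 and 3 held 248, 214 and 252. Every CV library lay below every GF library, in both sexes and across them. The mean fell from 926 ± 377 (SD, n = 6) in GF to 249.7 ± 85.3 (SD, n = 6) in CV livers. The log2 change was -1.87 (SE 0.28, limma adjusted p = 4.05e-05) over both sexes.

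Within males the log2 change of Stab2 was -1.63 (SE 0.40, limma adjusted p = 0.00842), and within females it was -2.10 (SE 0.40, limma adjusted p = 0.000409). It passed the test in males with any 1 library left out, with adjusted p up to 0.0440, and was -1.13 (adjusted p = 0.0415) without CV male 1. It was lost in males (-0.95, limma adjusted p = 0.263) when CV male 1 and the library labelled CV male 3 were both left out, which leaves 1 CV male whose spread is taken from the other groups.

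The stabilins also moved together from library to library. The ratio of Stab1 to Stab2 within a library ranged from 0.512 to 0.801 in GF (median 0.654) and from 0.623 to 0.801 in CV livers (median 0.706). The conditions overlapped, so the fall was of a like size in both genes while each gene alone ranged over more than an order of magnitude.

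The stretches just upstream of both stabilin genes and of Clec4g are shown. Upstream sequence was sought for the 4 members with the smallest adjusted p over both sexes, these 3 and Cdh5, and no window of Cdh5 is shown. The sequences are from RefSeq on GRCm38.p6, each read 5′ to 3′ along the minus strand, from chr10:87008026-87008192 for Stab2, chr14:31168642-31168891 for Stab1 and chr8:3720652-3720901 for Clec4g. Capitals mark AGGAAG, 1 form of the motif that ETS factors bind in endothelial genes, on either strand, where the opposite strand reads CTTCCT.
Stab2: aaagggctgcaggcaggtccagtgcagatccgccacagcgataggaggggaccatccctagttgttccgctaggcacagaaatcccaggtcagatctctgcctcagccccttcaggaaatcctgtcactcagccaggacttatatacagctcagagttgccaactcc
Stab1: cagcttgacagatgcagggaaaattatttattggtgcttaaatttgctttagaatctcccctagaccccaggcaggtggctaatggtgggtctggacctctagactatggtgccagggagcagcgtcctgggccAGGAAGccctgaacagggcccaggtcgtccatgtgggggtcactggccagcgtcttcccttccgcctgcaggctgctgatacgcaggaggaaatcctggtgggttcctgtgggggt
Clec4g: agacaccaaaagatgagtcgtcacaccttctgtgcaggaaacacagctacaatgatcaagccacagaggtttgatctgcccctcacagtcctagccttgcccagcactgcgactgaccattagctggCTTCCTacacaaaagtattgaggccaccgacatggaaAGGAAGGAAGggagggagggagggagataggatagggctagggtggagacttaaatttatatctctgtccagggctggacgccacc
The window of Stab1 held the motif once, starting 116 bases before the start site. That of Clec4g held it 3 times, starting 86, 82 and 123 bases before the start site, the first 2 overlapping each other and the last on the opposite strand. The shorter Stab2 window, cut to the bases outside annotated exons, held none. AGATAA, 1 form of the motif that GATA factors bind, was in none of these windows on either strand. Other forms were not searched for, and the bases GATA alone occurred in each window. Of 32851 upstream windows of 250 bases in the table, 29.5% held AGGAAG and 9.99% held AGATAA on either strand, and 5 of the 10 genes had a window in it.

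The other uptake receptors did not follow the stabilins. Lyve1 encodes a hyaluronan receptor shared with lymphatic vessels. Its normalized counts were 63.6, 82.5 and 76.5 in GF males and 25.0, 131 and 141 in CV males 1, 2 and 3. They were 69.4, 117 and 57.5 in GF females and 64.8, 84.0 and 101 in CV females. The groups overlapped in both sexes, with CV males spread on both sides of the GF males. The log2 change over both sexes was 0.07 (95% interval -0.65 to 0.80, limma adjusted p = 0.862). It was 0.47 (limma adjusted p = 0.0602) without CV male 1 and -0.14 (limma adjusted p = 0.734) when the library labelled CV male 3 was dropped, so the sign of the estimate depended on these libraries.

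Fcgr2b encodes the inhibitory IgG Fc receptor with which sinusoidal cells take up immune complexes, and B cells and macrophages make it too. Its normalized counts were 154, 110.5 and 162 in GF males and 104, 229 and 195 in CV males 1, 2 and 3. In GF females they were 187, 205 and 266, and in CV females 189, 171 and 175. The groups overlapped in both sexes. The log2 change was -0.02 (95% interval -0.44 to 0.41, limma adjusted p = 0.954). Mouse Fcgr2b and Fcgr3 resemble each other in sequence, and how reads that fit both were counted is not given in the sources used here.

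Clec4g encodes a C-type lectin of sinusoidal endothelium that binds sugars on pathogens and cells. GF males held 291, 226 and 343 normalized counts, and CV males 1, 2 and 3 held 204, 419.8 and 451. GF females held 299, 266 and 426, and CV females held 389.9, 407 and 464. All CV libraries but CV male 1 exceeded the GF median of 295, yet the groups overlapped in both sexes. The log2 change was 0.32 (95% interval -0.13 to 0.76, limma adjusted p = 0.203) over both sexes, and 0.50 (limma adjusted p = 0.0195), which passed the test, without CV male 1.

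Of the genes of junctions and growth factor signalling, Cdh5 passed the test in females, Kdr and Pecam1 did not, and none of the 3 passed in males. Cdh5 encodes VE-cadherin, which holds endothelial cells together. Its normalized counts were 124, 192 and 115 in GF females and 67.3, 57.8 and 87.3 in CV females. They were 84.2, 95.8 and 75.1 in GF males and 40.1, 97.8 and 104 in CV males 1, 2 and 3. The female groups did not overlap, and the GF males lay inside the range of the CV males. The log2 change of Cdh5 was -0.99 (SE 0.34, limma adjusted p = 0.0194) in females, -0.19 (SE 0.34, limma adjusted p = 0.699) in males and -0.59 (SE 0.24, limma adjusted p = 0.0407) over both sexes.

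The call of Cdh5 was close to the threshold. Over both sexes it was lost without GF male 1, GF male 2, GF female 2, CV male 1, CV female 1 or CV female 2, with limma adjusted p of 0.0629, 0.0759, 0.0950, 0.0967, 0.0724 and 0.0973, and it was kept at 0.0190 when the library labelled CV male 3 was dropped. DESeq2 (adjusted p = 0.0661) and edgeR with no filter on low counts (adjusted p = 0.0777) did not call it, whereas filtered edgeR (0.0326) and limma-voom (0.0248) did. In females it was lost without GF female 2, CV female 1 or CV female 2, at 0.0796, 0.0529 and 0.0788. The log2 change stayed between -0.71 and -0.37 over both sexes with any 1 library left out.

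Kdr encodes the main receptor for VEGF on endothelial cells. GF females held 249, 309 and 349 normalized counts and CV females held 189, 154 and 176. GF males held 141, 184 and 219.7, and CV males 1, 2 and 3 held 82.8, 303 and 282. The female groups did not overlap, whereas CV male 1 lay below and the other CV males above all GF males. The log2 change of Kdr was -0.79 (95% interval -1.59 to 0.00, limma adjusted p = 0.0833) in females and 0.11 (95% interval -0.69 to 0.90, limma adjusted p = 0.852) in males.

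Pecam1 encodes an adhesion molecule of all endothelium, present on platelets and leukocytes too. GF females held 109, 87.8 and 155 normalized counts and CV females held 71.5, 71.2 and 72.3. GF males held 73.4, 57.2 and 92.1, and CV males 1, 2 and 3 held 34.3, 105 and 88.1. The female groups did not overlap, with the CV females almost equal to one another, and the male groups did. The log2 change of Pecam1 was -0.66 (95% interval -1.42 to 0.09, limma adjusted p = 0.124) in females and -0.09 (95% interval -0.85 to 0.66, limma adjusted p = 0.866) in males. All groups share 1 estimate of the spread, and when CV male 1 was left out the unchanged female estimates passed the test, with limma adjusted p of 0.0361 for Pecam1 and 0.00597 for Kdr.

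Neither gene of a secreted protein passed the test. Dnase1l3 encodes a nuclease that degrades DNA in chromatin and microparticles in plasma, and its normalized counts ranged from 276 to 636 in GF and from 160.3 to 591 in CV livers. Oit3, whose product is secreted by liver cells, ranged from 124 to 266 in GF and from 79.1 to 229 in CV livers. The conditions overlapped for both genes in both sexes. The log2 changes were -0.19 (95% interval -0.79 to 0.42, limma adjusted p = 0.585) for Dnase1l3 and -0.08 (95% interval -0.59 to 0.43, limma adjusted p = 0.779) for Oit3.

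**Figure D2:**
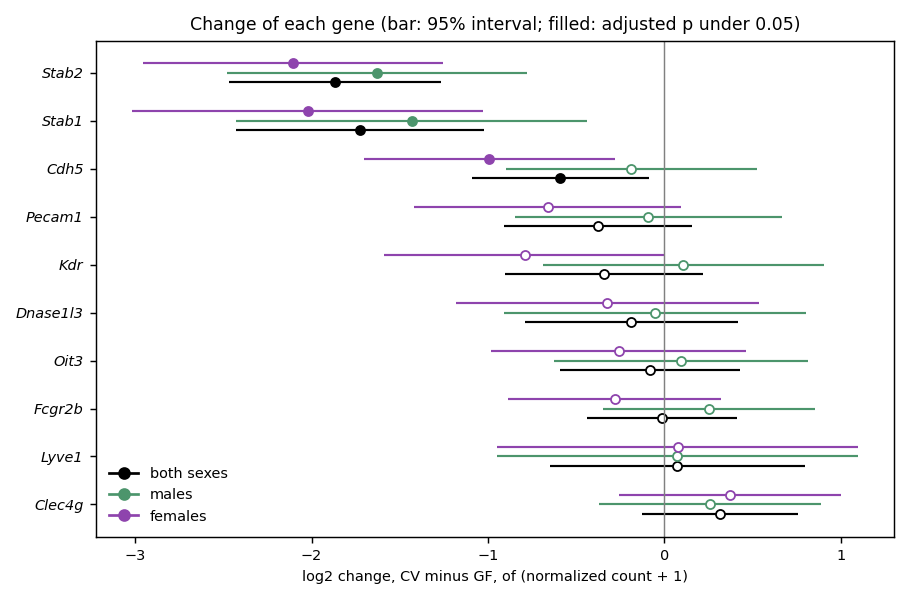
Log2 change from GF to CV of log2(normalized count + 1) for each gene (horizontal axis), with 95% intervals, over both sexes (black), in males (green) and in females (purple). Filled points mark an adjusted p under 0.05: Stab1 and Stab2 in all 3 comparisons, and Cdh5 over both sexes and in females.

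By sex, 2 of the 10 genes were called lower in CV males, beside 15.4% of all genes tested, and 3 in CV females, beside 26.0%. None was called higher, where 14.1% of all genes were in males and 29.8% in females. Libraries of the 2 conditions did not overlap, with CV below GF, for 2 genes in males (21.1% of all genes tested) and for 5 in females (31.0%), namely Stab1, Stab2, Pecam1, Kdr and Cdh5. In both sexes at once this held for Stab1 and Stab2 (17.9% of all genes tested). For 0 of the 10 did all CV libraries lie above all GF libraries of their sex, which held for 22.0% of all genes tested in males, 34.0% in females and 18.6% in both.

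The difference between the sexes in the size of the change was tested as an interaction. It was called by limma for 0 of the 10 genes, of which 0 had an unadjusted p under 0.05, and for 0.0% of all genes tested, with 1382 genes at an unadjusted p under 0.05. edgeR, limma-voom and DESeq2 likewise called 0 of the 10, and over all genes they called 0, 0 and 26, while edgeR with no filter on low counts called 105. Without CV male 1 limma called 282 genes. The widest estimates were 0.90 for Kdr (95% interval -0.23 to 2.02) and 0.80 for Cdh5 (95% interval -0.20 to 1.81), as the male minus the female log2 change. Without CV male 1 the interaction of Kdr passed the test, at 1.5 (limma adjusted p = 0.0367). The CV males were then CV male 2 and the library labelled CV male 3, whose sex chromosome genes went against its label. Of 28 settings other than the main one and the stricter threshold, the interaction of Kdr passed in 1. Males and females over both conditions differed by limma in 0 of the 10 genes and in 1.16% of all genes, and edgeR, limma-voom and DESeq2 called 0 of the 10. The smallest p was that of Fcgr2b, at -0.36 (limma unadjusted p = 0.0922, adjusted p = 0.544), with males lower.

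A ratio of 2 genes within a library does not depend on how the library was scaled, so each gene was set against Pecam1. Transcript length can still enter a ratio, at 3.44 kb for Pecam1, 1.44 kb for Clec4g, 8.00 kb for Stab1 and 8.23 kb for Stab2. Among all genes tested, the median log2 change was 0.24 at 2 to 4 kb, 0.76 at 1 to 2 kb and -0.78 at 7 to 9 kb. No ratio was recomputed with the length trend removed, and its part in the ratios was not tested. The ratio of Stab1 to Pecam1 ran from 3.79 to 9.84 in GF and from 2.18 to 2.66 in CV livers. That of Stab2 to Pecam1 ran from 7.39 to 12.3 in GF and from 3.01 to 3.57 in CV livers. That of Clec4g to Pecam1 ran from 2.74 to 3.96 in GF and from 4.00 to 6.42 in CV livers. For all 3 ratios the conditions did not overlap. The share of all genes tested whose ratio to Pecam1 did not overlap, or passed the test below, was not counted. It is thus not known whether these ratios stand out. CV male 1 lay within the range of the other CV libraries for each of them, and the library labelled CV male 3 did so for Stab2 and Clec4g but had the highest CV ratio for Stab1.

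The log2 ratio to Pecam1 differed between CV and GF by -1.35 for Stab1, by -1.49 for Stab2, by 0.69 for Clec4g and by 0.36 for Fcgr2b. An exact two-sided permutation test over 400 relabellings within sex gave p = 0.005 for each, the smallest it allows, and 0.0113 adjusted over 9 ratios. Fcgr2b missed the threshold, at an adjusted exact p of 0.0562, without GF male 3 or without CV female 1, whereas the other 3 passed with any 1 library left out. Lyve1 (0.45, exact p = 0.230), Oit3 (0.29, exact p = 0.175), Dnase1l3 (0.19, exact p = 0.545), Cdh5 (-0.21, exact p = 0.5) and Kdr (0.03, exact p = 0.840) did not pass. Without GF female 2 the ratio of Oit3 passed, at 0.47 (adjusted exact p = 0.0270). With Kdr as the denominator only the stabilins passed, with log2 differences of -1.38 for Stab1 and -1.52 for Stab2 (adjusted exact p = 0.0450 for both), and with Cdh5 as the denominator none of 9 ratios did. For Cdh5 the differences were -1.14 for Stab1 (adjusted exact p = 0.0707) and -1.28 for Stab2 (adjusted exact p = 0.0600).

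**Figure D3:**
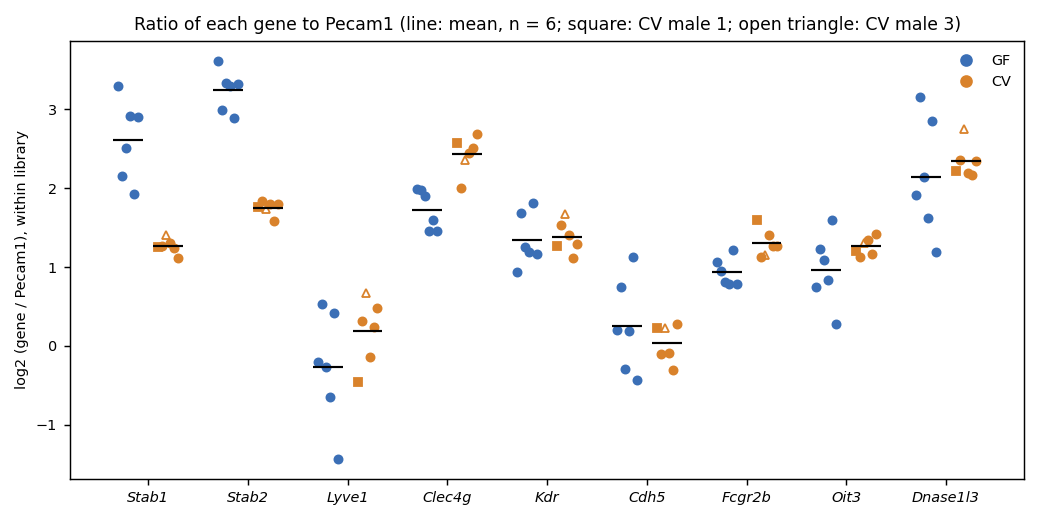
Log2 of each gene's normalized count over that of Pecam1 in the same library (vertical axis), for 6 GF (blue) and 6 CV (orange) livers, with a line at the mean. Stab1 and Stab2 are lower, and Clec4g higher, in every CV library than in every GF library. For these genes CV male 1 (square) lies within the range of the other CV libraries, while it is the highest CV library for Fcgr2b and the lowest for Lyve1.

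Compared per kilobase of transcript, Clec4g had the highest level of the 10 genes in both conditions, at 214 ± 47.9 (SD, n = 6) normalized counts per kb in GF and 269.95 ± 65.8 (SD, n = 6) in CV livers. In GF livers Stab2 had the second level at 113 ± 45.9 (SD, n = 6) per kb and Stab1 the fourth at 79.4 ± 42.1 (SD, n = 6). In CV livers they had the seventh and the eighth, at 30.3 ± 10.4 (SD, n = 6) and 22.3 ± 7.60 (SD, n = 6) per kb.

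Over all 12 libraries the order per kb was Clec4g, Dnase1l3, Stab2, Oit3, Stab1, Fcgr2b, Kdr, Lyve1, Pecam1 and Cdh5, with mean levels from 242 down to 23.8 normalized counts per kb. Of neighbours in this order, Clec4g exceeded Dnase1l3, and Fcgr2b exceeded Kdr, in 12 of 12 libraries. The other neighbours changed places between libraries, with the upper of the pair higher in 5 to 9 of 12 libraries, so no fixed order held for them. Where a pair held a stabilin, the stabilin was the lower in every CV library, while the GF libraries differed by pair. Stab2 exceeded Oit3, and Stab1 exceeded Fcgr2b, in every GF library but GF female 2. The remaining pairs were mixed in GF livers. Dnase1l3 exceeded Stab2 in GF male 2 and GF female 2, and Oit3 exceeded Stab1 in GF male 2, GF male 3 and GF female 2.

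Transcript length moved with these changes. The longest annotated transcripts of Stab2 and Stab1 measured 8.23 and 8.00 kb, those of the other 8 genes between 1.44 kb (Clec4g) and 5.92 kb (Kdr). Among all genes tested, the median log2 change was 0.76 for transcripts of 1 to 2 kb, 0.24 for 2 to 4 kb, -0.31 for 4 to 7 kb and -0.78 for 7 to 9 kb. Of the 635 genes of 7 to 9 kb, 61.6% were called lower in CV livers, 11.5% had a log2 change at or below that of Stab1 and 8.50% at or below that of Stab2. The stabilins thus lay in the lower tail of genes of their own length.

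When a trend on transcript length and GC content was removed from each library, the log2 change over both sexes was -0.97 for Stab2 (limma adjusted p = 0.00107) and -0.77 for Stab1 (limma adjusted p = 0.0117). Both estimates were closer to 0 than before and still passed. Cdh5 no longer passed (-0.53, limma adjusted p = 0.0845), and Stab1 no longer passed in males (-0.69, limma adjusted p = 0.142). The part of length or RNA quality in the remaining difference was not tested.

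**Figure D4:**
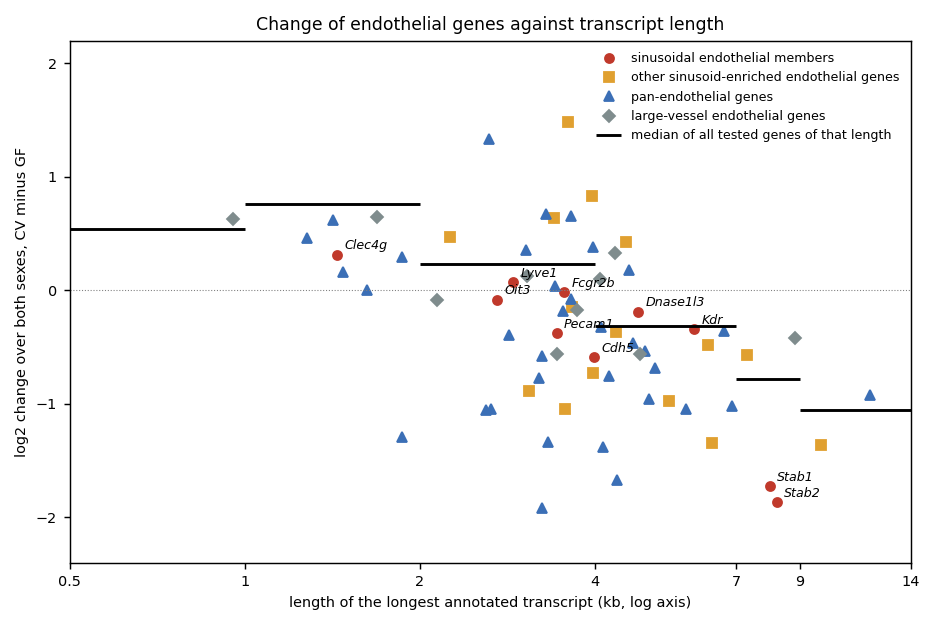
Log2 change over both sexes (vertical axis) against the length of the longest annotated transcript in kb (horizontal axis, log scale) for the endothelial genes, by list, with black lines at the median of all genes tested in each length class. Stab1 and Stab2, at 8.00 and 8.23 kb, lie below the median of -0.78 of their class, and the other 8 genes lie closer to the medians of theirs.

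Scaling moved the estimates as well. Scaling to all reads raised the median log2 change of all genes from 0.07 to 0.63, and scaling to the reads outside 7 abundant loci lowered it to -0.38. On these scales Stab1 changed by -1.17 and -2.19 and Stab2 by -1.31 and -2.33, and both passed on each. Clec4g was 0.87 (limma adjusted p = 0.00447) on the first and -0.14 on the second, so its sign depended on the scale, and Cdh5 was -0.03 (limma adjusted p = 0.910) and -1.05 (limma adjusted p = 0.00279). Of the 10 genes, 1 was called higher and 2 lower on the first scale (median 0.29), where 50.3% of all genes were called higher and 13.7% lower. On the second scale 0 were called higher and 5 lower (median -0.73), beside 18.2% and 41.2% of all genes. With the share of mitochondrial ribosomal RNA as a covariate, limma called 0 of the 10 genes and 0 of all genes over both sexes, with 1985 at an unadjusted p under 0.05, and Stab1 and Stab2 stood at -0.29 and -0.49. That share did not overlap between the conditions, so the 2 cannot be told apart.

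Other genes enriched in sinusoidal endothelium behaved in a mixed way. Of 16 such genes 15 were tested, 7 were called lower and 2 higher in CV livers over both sexes, and their median log2 change was -0.48. Of all genes 28.7% were called lower and 32.3% higher. In males 0 of the 15 were called lower and 2 higher (median -0.17), beside 15.4% and 14.1% of all genes. In females 7 were called lower and 1 higher (median -0.87), beside 26.0% and 29.8%. The interaction was called for 0 of them. Scaled to all reads the split was 2 lower and 4 higher, and scaled to reads outside 7 abundant loci it was 10 lower and 0 higher. After removal of the length and GC trend 4 were called lower and 2 higher, and the median turned to 0.06. F8, which encodes coagulation factor VIII, fell by 1.37 on the log2 scale (SE 0.28, limma adjusted p = 0.00054), and the transcription factor gene Maf fell by 1.35 (SE 0.28, limma adjusted p = 0.000631). Gpr182, a receptor gene of sinusoidal endothelium, rose by 0.83 (SE 0.22, limma adjusted p = 0.00362), and Bmp6, an iron-regulating signal of these cells, rose by 1.48 (SE 0.57, limma adjusted p = 0.0343) from a low level of 6.46 ± 4.84 (SD, n = 6) normalized counts. Bmp6 no longer passed without CV male 1 (limma adjusted p = 0.0768), nor F8 once the trend on length and GC content was removed (limma adjusted p = 0.187). Outside 7 abundant loci neither Gpr182 nor Bmp6 passed. Cd209b was near 0, at 0.149 and 1.06 normalized counts in GF and CV livers.

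Among 35 genes common to endothelium, 34 were tested, 15 were called lower and 1 higher in CV livers over both sexes, with a median of -0.43. Of all genes 28.7% were called lower and 32.3% higher. In males 2 of the 34 were called lower and 1 higher (median -0.10), and in females 15 lower and 1 higher (median -0.79). The interaction was called for 0 of them. Scaled to all reads the split was 4 lower and 12 higher, and scaled to reads outside 7 abundant loci it was 19 lower and 1 higher. After removal of the length and GC trend it was 9 lower and 1 higher (median -0.31), and without CV male 1 it was 13 lower and 4 higher (median -0.25). Aqp1, a water channel gene, rose by 1.34 (SE 0.24, limma adjusted p = 0.000171). Arhgef15 fell by 1.67 (SE 0.30, limma adjusted p = 0.000164), and Kank3 fell by 1.05 (SE 0.21, limma adjusted p = 0.000371), though not past the test when scaled to all reads. Of 15 genes typical of larger vessels 10 were tested, and limma called 0 over both sexes, with 1 at an unadjusted p under 0.05 and a median of 0.01, and filtered edgeR, limma-voom and DESeq2 also called 0. Scaled to all reads, 4 were called higher, and 2 were called higher without CV male 1, by edgeR with no filter on low counts, with the replicate block, or when the length and GC trend was taken out.

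Ligands that act on these cells changed in opposite directions. Vegfa, the ligand of Kdr, fell from 1623 ± 295 (SD, n = 6) to 513 ± 138 (SD, n = 6) normalized counts, by 1.68 on the log2 scale (SE 0.18, limma adjusted p = 2.17e-06). Vegfd, a ligand of lymphatic endothelium, fell by 2.02 (SE 0.41, limma adjusted p = 0.000548) from 26.8 ± 16.6 (SD, n = 6) normalized counts. Vegfb rose by 0.89 (SE 0.30, limma adjusted p = 0.0158), and Vegfc rose by 0.92 (SE 0.37, limma adjusted p = 0.0382). Gdf2, which encodes the circulating endothelial factor BMP9, rose by 1.03 (SE 0.16, limma adjusted p = 4.05e-05). Vegfc no longer passed without CV male 1 (limma adjusted p = 0.0684) or CV male 3 (0.0671), removal of the length and GC trend left neither Vegfb nor Vegfc past the test, and outside 7 abundant loci Gdf2 was the 1 ligand gene called higher. Angpt1, Angpt2, Pgf and Bmp10 were too low to be tested.

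The genes that handle the cargo of these receptors were examined too. For hyaluronan, which Stab2 and Lyve1 bind, 4 of 9 genes of synthesis and breakdown were tested. The hyaluronidase genes moved apart, as Hyal2 rose by 1.03 (SE 0.18, limma adjusted p = 0.000148) while Hyal1 fell by 1.33 (SE 0.20, limma adjusted p = 3.01e-05). Cemip2, a cell-surface hyaluronidase gene, fell by 1.38 (SE 0.25, limma adjusted p = 0.000165), Cd44 did not pass, and the synthase gene Has2 was listed at 0 in every library.

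Of 5 other Fc receptor genes, 4 rose and the fifth did not pass. Fcgrt, the neonatal receptor that recycles IgG and albumin, rose by 2.00 (SE 0.19, limma adjusted p = 1.1e-06), and Fcgr4 rose by 1.77 (SE 0.34, limma adjusted p = 0.000284). All 5 were called higher when scaled to all reads, and 2 were outside 7 abundant loci or after removal of the length and GC trend. Of 5 other deoxyribonuclease genes 3 were tested, and Dnase1l2 fell by 3.25 (SE 0.37, limma adjusted p = 3.5e-06) while the other 2 did not pass. Scaled to all reads 1 of these 3 was called higher, and scaled to reads outside 7 abundant loci 2 were called lower.

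Markers of other cells moved with condition beside these results. All 12 Kupffer cell markers were tested, and 8 rose and the other 4 did not pass, with a median log2 change of 0.93. Their summed level was 1297 to 2480 normalized counts in GF and 1774 to 4228 in CV livers. Lymphocyte markers went the other way: all 7 tested of 10 fell (median -1.96), with sums of 409.6 to 682 in GF and 96.3 to 173 in CV livers. Red blood cell genes fell for 4 of the 5 tested of 6, with sums of 2781 to 32901 in GF and 916 to 3160.2 in CV livers. The stabilins thus fell while the markers of Kupffer cells, a lineage that can also express Stab1, rose. The part of any of these cells in the endothelial results was not tested.

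For the remaining cell types, 7 of 12 hepatocyte markers rose and the other 5 did not pass (median 0.70), with sums of 163464 to 645983 in GF and 550357 to 781949.7 in CV livers. Outside 7 abundant loci 4 of them were called higher and 1 lower, and without CV male 1 the counts were 6 and 2. Of 13 stellate cell and fibroblast markers, 4 rose and 1 fell (median 0.36), with sums of 2488 to 4674 in GF and 2914 to 5107 in CV livers, and the split was 11 higher and 0 lower scaled to all reads and 1 higher and 2 lower outside 7 abundant loci. Of 6 tested bile duct markers 1 rose (median 0.19), with sums of 458 to 1071 in GF and 531 to 1627 in CV livers. The summed level of the 10 sinusoidal genes themselves was 2109 to 4623 in GF and 928 to 2680.0 in CV livers, with overlap.

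Within groups the 10 genes rose and fell together. After the mean of each of the 4 groups was subtracted, each gene's Pearson correlation with the mean of the other 9 over the 12 libraries lay between 0.615 (Stab1) and 0.941 (Kdr). These are descriptions, and they rest largely on 1 group, since the CV males held 91.1% of the variance of the shared profile, with CV male 1 at the low end. The tested genes outside the lists that followed this profile most closely were Cyyr1 (0.988), Ripply3 (0.985), Atp2b4 (0.978), Dusp11 (0.974) and Cramp1l (0.972). The median correlation with the profile was 0.75 for the 15 other sinusoid-enriched genes, 0.69 for the 34 genes common to endothelium and -0.33 for the 12 hepatocyte markers, beside -0.04 for all 11782 genes tested. The points share library depth and scaling.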

How the data were processed

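RNA was extracted from frozen liver with a column kit, and stranded mRNA libraries of 12 mice were sequenced. The deposited values are a normalized signal for each gene. The submitters' processing notes name HTSeq (version 0.6.1p1), DESeq2 and build GRCm38, and the values equal read counts over a DESeq2 size factor recomputed here from 12512 genes. The aligner and annotation are not given in the sources used here. The paper linked to the series describes another experiment, so no method was taken from it. All values (100%) were whole multiples of 1 read within 0.01 reads, so reads could be recovered, with 5993619 to 15290835 per library. Counts of reads cover counting error only.

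Groups and replicate numbers came from the sample titles. Genes with a mean value of at least 10 were tested with limma (version 3.58.1, R 4.3.3) on log2(value + 1), a scale that understates changes of low genes. All 12 libraries entered 1 fit of 4 group means, with a variance trend and Benjamini-Hochberg adjustment over all 11782 genes at a threshold of 0.05. This test was the main one because the table holds normalized values and not raw counts. Ratios to Pecam1 used an exact permutation test that exchanged conditions within labelled sex. The script of the limma test was tested on simulated data. Alternatives were edgeR (version 4.0.16), DESeq2 (version 1.42.0) and limma-voom on recovered reads, other pseudocounts (0.5 and 5), minimum means (1 and 50), scalings, a covariate, a stricter threshold of 0.01, each library left out and a replicate block. Scaling outside 7 abundant loci (both mitochondrial ribosomal RNA genes, Lars2, Mir6236 and 3 predicted genes), removal of a length and GC trend, and leaving out 2 libraries together were chosen after seeing the data.

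The 10 genes and all other lists were chosen with earlier results of these data known. From each other list, up to 2 genes higher and 2 lower with the smallest adjusted p were named, plus all VEGF and angiopoietin ligands, genes near 0, and the 5 genes outside the lists most correlated with the 10. Upstream sequence was sought for the 4 members with the smallest adjusted p, Stab2, Stab1, Cdh5 and Clec4g. Coordinates and transcript lengths are from GENCODE M21 on GRCm38, which listed 40254 (97.9%) of the 41128 genes.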

Additional observations from a re-analysis of the deposited data

Results flagged for a closer look

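Of 20 sets of 6 libraries examined (each of the 10 genes in GF and in CV livers), 1 held a library far from the others. Clec4g in CV male 1 was 204 normalized counts, while the other CV libraries lay between 389.9 and 464, and the gap to the nearest of them took 0.714 of the whole range, above the critical value of 0.625. Chance gives such a gap in about 1 of 20 sets. The Clec4g change without this library is given with the results above.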

How the results depend on the processing

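Stab1 and Stab2 kept their sign in every comparison of CV with GF over 29 settings, and 102 of 870 recomputed changes of the 10 genes changed sign, of which 2 concerned a call. Those were Cdh5 with the mitochondrial ribosomal RNA share as covariate, at 1.68 over both sexes and 2.19 in females, neither past the test. Part of the 870 could not change sign. The stricter threshold, the other minimum means and the replicate block leave each estimate as it was. A left-out library of the other sex does so for a change within males or within females. With that covariate 0 genes were called over both sexes, in males or in females. Outside 7 abundant loci 5 genes were called, all lower, over both sexes and 6 in females, where 41.2% and 39.3% of all genes were called lower. In males 1 gene, Stab2, was called at a threshold of 0.01, scaled to all reads, scaled to reads outside mitochondrial ribosomal RNA, or with the length and GC trend removed. In these settings 6.81%, 6.67%, 7.62% and 11.3% of all genes were called lower in males. Without both CV male 1 and CV male 3, 0 were called in males and 5, all lower, in females, where 0.867% and 27.2% of all genes were called lower. With 1 library left out, 1 to 2 genes were called in males, 2 to 5 in females and 0 to 1 for the interaction. Of all genes, 13.6% to 33% were called in males, 46.9% to 59.1% in females and 0 to 2.38% for the interaction, in either direction. Of the ratios, 0 passed with Cdh5 and 2 with Kdr as the denominator. The cause of these shifts was not tested.

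With the replicate number as a block, 2 genes were called over both sexes (Cdh5 lost, limma adjusted p = 0.0518) and 4 in females (Kdr gained, 0.0459). Of all genes, 57.9% and 51.9% were called there in either direction. With this block 0 ratios passed, as 64 sign exchanges allow no exact p under 0.0312. Deviations of same-numbered libraries correlated between -0.23 and 0.02, no library correlated best with its own number, so the libraries share only a number, and the sex difference could not be fitted with this block.

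Scaling to all reads gave 5926 higher and 1613 lower genes over both sexes, and scaling outside 7 loci gave 2145 and 4856, beside 3807 and 3387. With 3 mice per group the 95% interval of Lyve1 over both sexes ran from -0.65 to 0.80, so a change of Lyve1 within that range remains possible.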
